A study of Mus musculus with 2 samples.

Results

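In the library of early-anagen melanocyte stem cells (McSCs), 305 barcodes combined a large number of captured transcripts with a high share of mitochondrial transcripts. They were chosen by 2 values, more than 10000 unique molecular identifiers (UMIs, 1 per captured transcript) and at least 5% of UMIs from genes whose symbols start with mt-, and they are called high-mt barcodes here. They made up 8.09% of the 3769 barcodes with over 10000 UMIs (exact Clopper-Pearson 95% interval 7.24% to 9.01%) and 2.77% of the 11010 barcodes of the library. The quality filter of the study drops them. The other 3464 barcodes with over 10000 UMIs, with less than 5% mt- UMIs, are called low-mt barcodes and served as the comparison.

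The library held 116800173 UMIs from GFP+ cells sorted from dorsal skin. The mice carried the 2 transgenes Dct-rtTA and tetO-H2B-GFP, so that the *Dct* promoter drove a doxycycline-dependent nuclear GFP in the melanocyte lineage. The mice were depilated at 8 weeks, received chow with 1 g/kg doxycycline for 4 days and were sampled 4 days after depilation, at anagen II, and the trypsin-dissociated cells of 4 mice were combined. A second library, of bulb melanocytes at anagen VI from 4 mice of the same genotype aged 5 weeks and given the same chow for 4 days, was made with version 2 instead of version 3 of the droplet chemistry and enters only the closing observations. The telogen library was not analysed here. With 1 library per condition and barcodes that are not replicates, no test was run, and every interval below covers counting error only.

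Mitochondria carry a small circular genome of their own, transcribed inside the organelle, whose messages encode core subunits of the respiratory complexes. All remaining subunits, the proteins of the mitochondrial ribosome and the enzymes that copy and transcribe mitochondrial DNA are encoded in the nucleus and imported. In droplet data a large mt- share is widely taken as a sign of a damaged cell that has lost cytosolic RNA, but it also differs between cell types and metabolic states, and melanocytes are cells with a costly secretory and pigment-making programme.

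The high-mt barcodes were the tail of a continuous distribution, not a separate cluster. Of the 305, 104 lay between 5 and 5.5% mt- UMIs and 164 between 5 and 6%, with 165 low-mt barcodes just outside the limit, between 4.5 and 5%. Only 17 reached 10% and 1 reached 20%, and the highest share was 21.4%. The median share was 5.85%. A high-mt barcode had a median of 17677 UMIs (lowest 10009, highest 85240). The share of barcodes that were high-mt was lower at each greater depth, at 17.4% of those with 10000 to 15000 UMIs, 13.5% at 15000 to 20000, 7.85% at 20000 to 30000 and 2.89% over 30000, after the selection given next.

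**Figure D1:**
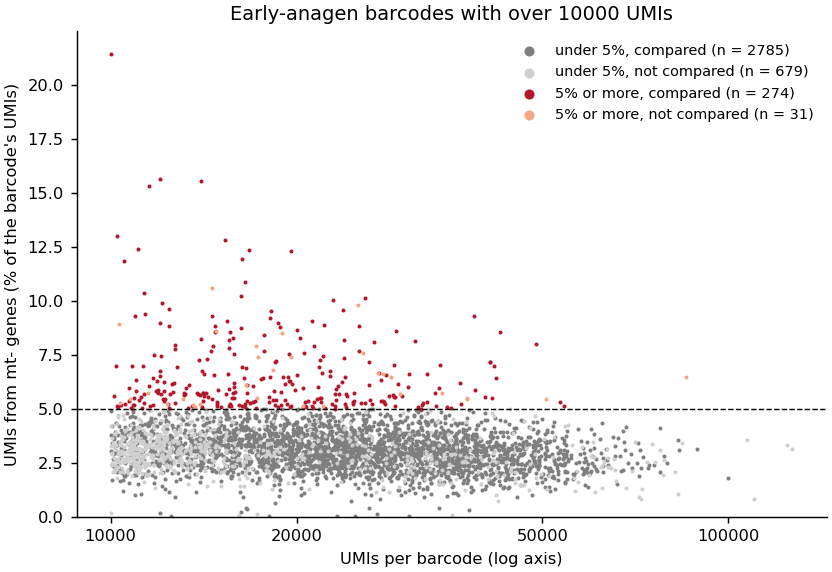
Each point is 1 early-anagen barcode with over 10000 UMIs, plotted by its UMIs (log axis) and by the percentage of UMIs from mt- genes, with the 5% limit as a dashed line. The 305 barcodes above the line thin out upward from the limit without a gap, and few of them have over 30000 UMIs.

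For the comparison, both groups were limited to barcodes with at least 1 *Dct* UMI and fewer than 3 UMIs of *Krt10* and *Krt14* together, keratins of epidermal keratinocytes. This left 274 high-mt and 2785 low-mt barcodes. All 31 high-mt barcodes left out (10.2%, 7.01% to 14.1%) had too many keratin UMIs and none lacked *Dct*, while 679 low-mt barcodes were left out (19.6%, 18.3% to 20.96%). The label was checked on the melanocyte markers *Dct*, which drove the sort and is part of the selection, *Tyrp1*, *Pmel*, *Mlana*, *Mitf*, *Sox10*, *Kit* and *Tyr*. All 8 were detected in 256 of the 305 (83.9%), in 235 of the 274 selected (85.8%) and in 80.9% of the selected low-mt barcodes. Before the selection, 4 of the 305 had more UMIs of keratinocyte than of melanocyte markers.

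Markers of keratinocytes, fibroblasts, immune cells, endothelium and erythrocytes were at low levels in the 274 selected high-mt barcodes. Their UMIs were summed after thinning each barcode to 10000 UMIs at random, and levels are given in CPM, the UMIs of a gene for every 1000000 UMIs of genes other than mt-, so that the mitochondrial share itself does not enter the total. The 15 keratinocyte markers summed to 88.7 CPM in high-mt and 85.4 CPM in low-mt barcodes, with *Krt10* the most abundant in high-mt barcodes, at 16.0 and 15.4 CPM. Of the 2305 low-mt UMIs of the list, 985 came from the 270 barcodes below 2% mt- UMIs, which were at 371 CPM. At 2 to 3, 3 to 4 and 4 to 5% the list was at 44.5, 56.0 and 74.8 CPM. At 5 to 6, 6 to 8 and 8% or more it was at 88.6, 82.5 and 99.7 CPM. In 2 selected low-mt barcodes keratinocyte marker UMIs outnumbered melanocyte marker UMIs. The list holds *Krt10* and *Krt14*, whose limit in the selection fixes low levels in both groups, and the 31 high-mt barcodes left out were at 6284 CPM. *Krtdap*, the most abundant in low-mt barcodes, was at 7.04 and 20.6 CPM, and *Krt17* and *Sfn* were at 12.9 and 13.3 CPM against 5.15 and 6.33 CPM. The 8 fibroblast markers summed to 10.2 and 8.70 CPM, with 4 of them, *Col1a1* among them, at 0 UMIs in high-mt barcodes. The 9 immune markers summed to 23.1 and 36.9 CPM, with *Cd207*, *Tyrobp*, *Trdc* and *Cd3e* at 0 in high-mt barcodes, and *H2-Aa* was the most abundant, with 30 UMIs in 9 barcodes. The 5 endothelial markers summed to 12.5 and 14.7 CPM, nearly all of it *Egfl7*, with *Cdh5*, *Kdr* and *Emcn* at 0, and the 5 erythrocyte markers gave 3 UMIs, all of *Hbb-bs*.

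The mt- genes themselves are a description of the rule. In UMIs per barcode at 10000 UMIs, *mt-Co1*, a core subunit of complex IV, ranged from 35 to 270 with a median of 93 in high-mt barcodes, against 0 to 128 with a median of 45 in low-mt barcodes. *mt-Nd1*, a subunit of complex I, ranged from 11 to 271 with a median of 39, against 0 to 69 with a median of 18. All 13 protein-coding mt- genes took part, with log2 ratios of high-mt over low-mt level from 1.10 for *mt-Co1* to 1.33 for *mt-Nd5* and *mt-Nd4l*. Their proportions stayed close. The 7 complex I genes gave 21.7% of mt- UMIs in high-mt and 20.1% in low-mt barcodes, *mt-Cytb* of complex III 17.6% in both, the 3 complex IV genes 43.8% and 44.8%, and the 2 complex V genes 16.9% and 17.4%.

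Outside the mitochondrial genome, most genes differed little between the groups. Of 3196 genes with at least 50 CPM in either group, the median log2 ratio of high-mt over low-mt was 0.02, with quartiles of -0.14 and 0.22. In high-mt barcodes 81 of them were past 1.5-fold higher (2.53% of genes) and 41 past 1.5-fold lower (1.28%). A gene can pass this minimum through 1 group alone, as 56 of the 81 and 20 of the 41 did. With 50 CPM required of the mean of both groups, 54 of 2951 genes (1.83%) were past 1.5-fold higher and 29 (0.983%) lower. Of the 3196 genes at 50 CPM in either group 52.5% were higher and 47.5% lower, and 28.1% were higher and 23.4% lower beyond counting error. Among all 13790 genes detected in high-mt and in low-mt barcodes, many of them at low levels, 66.3% were higher and 33.7% lower, and 16.7% and 7.39% were so beyond counting error. This split depends on the scaling. With trimmed-mean (TMM) factors in place of the plain total, every log2 ratio falls by 0.17, the median of all genes becomes -0.16, and 20 genes are past 1.5-fold higher and 123 lower, so lists are read below against the median of all genes. That median was 0.02 at 50 CPM or more and 0.18 over the 13790 detected genes, which is the one for lists whose members are mostly at low levels.

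The pigment programme was higher in high-mt barcodes. All 18 pigmentation genes were higher, 17 of them beyond counting error, although *Mlana*, *Slc24a5* and *Mc1r* turn negative with TMM factors. Of all genes at 50 CPM or more 52.5% were higher and 28.1% higher beyond counting error. The list had a median log2 ratio of 0.42 against 0.02 for all genes. *Oca2*, *Gpr143* and *Myo5a* were past 1.5-fold higher, of which *Oca2* reached 50 CPM only in high-mt barcodes. On the mean of both groups 2 of 15 members were past 1.5-fold higher, against 1.83% of all genes. Summed, the list was at 36603 CPM in high-mt and 29190 CPM in low-mt barcodes. Per barcode at 10000 UMIs its sum ranged from 46 to 763 UMIs with a median of 320 in high-mt barcodes, and from 0 to 769 with a median of 266 in low-mt barcodes, so the groups overlap over nearly their whole range.

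Among the melanin enzymes, *Tyr*, the rate-limiting tyrosinase, was at 810 against 596 CPM (log2 ratio 0.44, 0.38 to 0.51). *Tyrp1*, which acts later in eumelanin synthesis, had 4 to 142 UMIs per barcode with a median of 63 in high-mt barcodes and 0 to 197 with a median of 53 in low-mt barcodes (log2 ratio 0.26, 0.24 to 0.29). *Dct*, dopachrome tautomerase, whose detection was part of the selection, had a log2 ratio of 0.46. Of the melanosome matrix and membrane proteins, *Pmel*, which forms the fibrils on which melanin is laid down, was at 5958 against 4616 CPM (0.37, 0.34 to 0.39), and *Gpnmb* had a log2 ratio of 0.30. *Mlana* differed least, at 6122 against 5735 CPM (0.09, 0.07 to 0.12).

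Transporters held the 2 largest ratios of the list. *Oca2*, which sets the pH of the melanosome, was at 52.8 against 23.9 CPM (1.14, 0.86 to 1.41), and *Slc24a4*, a cation exchanger, at 35.2 against 18.3 CPM (0.94, 0.60 to 1.27). The cation channel *Trpm1* (0.54), the copper pump *Atp7a* (0.41, 0.06 to 0.73) and the transporters *Slc45a2* (0.31) and *Slc24a5* (0.15) had smaller ratios. At a fixed 5000 UMIs of nuclear genes per barcode, *Oca2* was detected in 13.1% of high-mt barcodes (36 of 274, 9.37% to 17.7%) and in 7.25% of low-mt barcodes (202 of 2785, 6.32% to 8.28%). In the 97 deep barcodes with more keratinocyte than melanocyte marker UMIs it was detected in 0, which allows a share of up to 3.73%. Without thinning the shares were 22.6%, 16.3% and 2.06%, at median depths of 17587.5, 24528 and 34035 UMIs.

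The genes of melanosome movement, *Rab27a* (0.57, 0.40 to 0.73), its effector *Mlph* (0.44) and the motor *Myo5a* (0.59, 0.50 to 0.68), were also higher, as was *Rab38* (0.25), which sorts cargo to melanosomes. The melanosomal receptor *Gpr143* was at 99.3 against 62.0 CPM (0.68, 0.48 to 0.87). *Mc1r*, the melanocortin receptor at the cell surface, was the only gene of the list within counting error, at 103 against 93.0 CPM (0.15, -0.04 to 0.33).

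**Figure D2:**
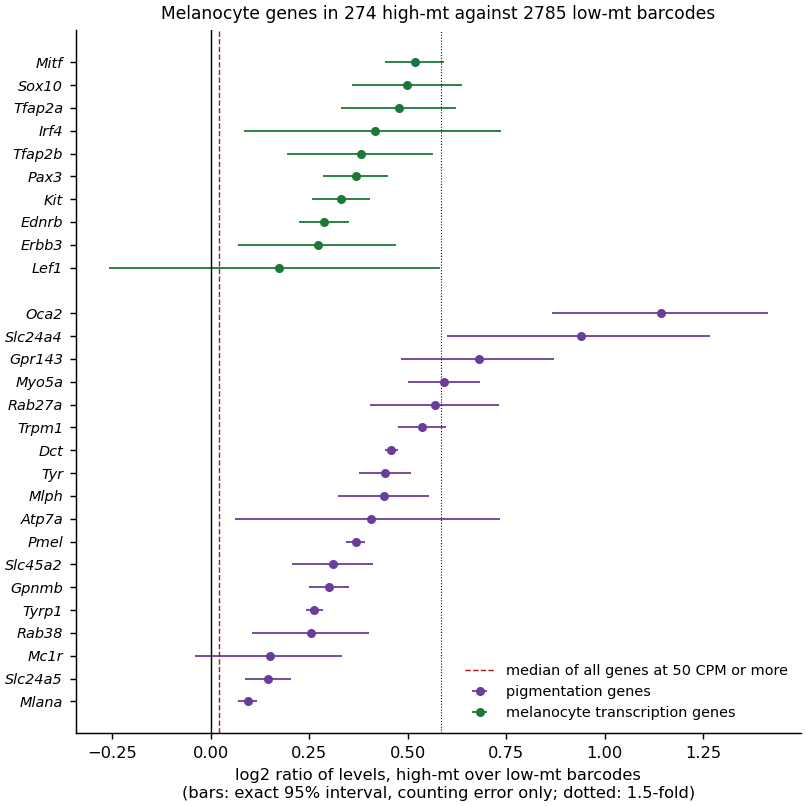
Points are log2 ratios of summed levels, 274 high-mt over 2785 low-mt barcodes, for 18 pigmentation and 10 melanocyte transcription genes, with exact 95% intervals for counting error as bars, a dotted line at 1.5-fold and a dashed line at the median of all genes. All 28 points lie right of 0 (with TMM factors *Mlana*, *Slc24a5* and *Mc1r* lie left of it), with *Oca2* farthest and *Mlana* nearest.

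The 250 bases before the starts of these genes were searched for CATGTG on both strands. It is a form of E-box bound by MITF, the master transcription factor of melanocytes. RefSeq windows (build GRCm38.p6) were found for 13 of the 18 genes, and 7 of the 13 held the letters (53.8%), against 4025 of all 32851 windows (12.3%). The first window of each of the 13 was counted, while some genes have more than 1 among all windows. Matches are a description of the sequence and not evidence of a bound site. They do not depend on the barcodes, so they cannot bear on why the genes were higher. The windows around the match of the 3 enzymes and of *Oca2* are printed 5′ to 3′ on the gene's strand with the motif in capitals, and they lie at chr7:87493513-87493563 (minus strand) for *Tyr*, chr4:80834137-80834202 (plus strand) for *Tyrp1*, chr14:118052361-118052426 (minus strand) for *Dct* and chr7:56239543-56239608 (plus strand) for *Oca2*.
Tyr: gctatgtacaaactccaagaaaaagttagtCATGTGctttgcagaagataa
Tyrp1: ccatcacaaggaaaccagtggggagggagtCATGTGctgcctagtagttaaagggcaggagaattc
Dct: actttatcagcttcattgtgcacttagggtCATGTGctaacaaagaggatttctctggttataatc
Oca2: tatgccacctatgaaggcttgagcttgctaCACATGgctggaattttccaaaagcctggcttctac
The match printed began 21 bases before the start of *Tyr*, 46 before *Tyrp1*, 150 before *Dct* and 186 before *Oca2*. *Dct* had 2 matches in its window, of which 1 is printed. *Mlph*, *Gpnmb*, *Rab27a*, *Myo5a*, *Slc24a4* and *Atp7a* had no match in their window and were also higher.

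The regulators of the lineage were higher too. All 10 genes of melanocyte transcription and receptor signalling were higher and 9 were beyond counting error, against 52.5% and 28.1% of all genes at 50 CPM or more. Their median log2 ratio was 0.37, and 0 of the 8 at 50 CPM or more were past 1.5-fold higher, against 2.53% of all genes. *Mitf* was at 647 against 452 CPM (0.52, 0.44 to 0.59), *Sox10*, which activates it, at 189 against 134 CPM (0.50, 0.36 to 0.64) and *Pax3* at 521 against 404 CPM (0.37, 0.28 to 0.45). *Tfap2a* (0.48), *Tfap2b* (0.38) and *Irf4* (0.42, 0.08 to 0.74) were higher as well, as were the receptors *Kit* (0.33), *Ednrb* (0.29) and *Erbb3* (0.27). *Lef1*, a mediator of WNT signalling, was within counting error (0.17, -0.26 to 0.58). The 6 genes that the study picked as enriched in stem cells, a list drawn from these samples and so not independent evidence, had a median of 0.19, with 3 higher beyond counting error (*Txnip*, *Cdh1* and *Hspa1a*) and *Cd9* within it (-0.01, -0.08 to 0.06). That median was -0.069 at 10000 to 20000 UMIs.

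Depth moved with these results, since low-mt barcodes had more UMIs (median 24528 against 17587.5), and its part was measured by comparing within depth. All 18 pigmentation genes were higher at 10000 to 20000 UMIs (170 high-mt and 931 low-mt barcodes), with a median log2 ratio of 0.27, and all 18 over 20000 UMIs (104 and 1854 barcodes), with a median of 0.57. For the melanocyte transcription genes these medians were 0.31 and 0.43, and for *Oca2* alone 0.91 (0.38 to 1.42) and 1.72 (1.38 to 2.04). The median of all genes in the same barcodes was 0.05 and 0.03. At 15000 to 20000 UMIs alone, 14 pigmentation genes were higher and 4 lower (median 0.22). *Oca2* was within counting error there (0.47, -0.36 to 1.21). The excess was not even along the tail. The level of *Oca2* was 74.3 CPM at 5 to 6% mt- UMIs, which held 104 of its 135 UMIs, but 28.9 CPM (17.9 to 44.1) at 6 to 8% and 23.2 CPM (11.1 to 42.7) at 8% or more, near the 23.9 CPM of all low-mt barcodes. The 16 selected barcodes with 10% or more mt- UMIs had a pigmentation median of -0.027 and an *Oca2* log2 ratio of -0.15 (-2.43 to 1.40).

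The nuclear partners of the mt- genes were not raised with them. Of 75 nuclear genes of oxidative phosphorylation, 68 were lower in high-mt barcodes, 42 of them beyond counting error, and 7 were higher, 1 beyond counting error. Of all genes at 50 CPM or more, as all 75 were, 47.5% were lower and 23.4% lower beyond counting error. Abundant genes reach that call at small ratios. The shifts of the 75 were small, with a median log2 ratio of -0.12 and 0 of 75 past 1.5-fold, against 1.28% of all genes past 1.5-fold lower. The largest were those of *Ndufab1*, a complex I subunit and acyl carrier protein (280 against 365 CPM, -0.38, -0.49 to -0.27), *Atp5g1* of the ATP synthase (-0.37) and *Cyc1* of complex III (-0.32). *Cox6a1* of complex IV was the exception (483 against 439 CPM, 0.14, 0.05 to 0.22), and it turns negative with TMM factors. The direction of the list was the same at 10000 to 20000 UMIs (-0.08) and over 20000 UMIs (-0.07).

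Other nuclear genes of the organelle differed less clearly from all genes. Of 75 mitochondrial ribosomal protein genes, 56 of them at 50 CPM or more, 61 were lower, 22 beyond counting error. The shares of all genes at 50 CPM or more were 47.5% and 23.4%. The median of the list was -0.14 and turns positive at 10000 to 20000 UMIs. Of 12 mitochondrial chaperones and proteases 9 were lower, 4 beyond counting error, against 47.5% and 23.4% of all genes at 50 CPM or more. Among the 4 were the folding machinery *Hspd1* (417 against 550 CPM, -0.40, -0.49 to -0.31), *Hspe1* (-0.33) and *Hspa9* (-0.44). The 21 genes that copy, transcribe and process mitochondrial DNA had a median of 0.23, with only 2 at 50 CPM or more, near the 0.18 of all detected genes. *Polg*, the mitochondrial DNA polymerase, was at 32.4 against 19.9 CPM (0.70, 0.35 to 1.04) and *Polrmt*, its RNA polymerase, at 8.21 against 4.89 CPM (0.75, 0.01 to 1.42), while *Ppargc1a*, the coactivator that drives mitochondrial biogenesis, was at 27.8 against 32.1 CPM (-0.21, -0.58 to 0.14). Mitophagy and autophagy genes had a median of 0.11, with 14 of 20 higher and 3 beyond counting error, shares near the 66.3% and 16.7% of all detected genes, whose median was 0.18. That median was negative under TMM factors (-0.06) and at 10000 to 20000 UMIs (-0.08). Of 17 glycolysis genes 14 were lower, 8 beyond counting error (median -0.15, with *Pgk1* at -0.41). Of 20 antioxidant genes 12 were lower, 8 beyond counting error (median -0.08), with *Prdx1* at -0.26, mitochondrial *Sod2* at -0.30 and *Cat* at 0.35 (0.09 to 0.61). Of all genes at 50 CPM or more, as 10 of the 17 and 15 of the 20 were, 47.5% were lower and 23.4% lower beyond counting error.

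Messages of the translation apparatus, short and abundant in the cytosol, took a smaller share. Of 83 cytosolic ribosomal protein genes with UMIs in both groups 76 were lower, 69 beyond counting error, with a median of -0.10. Of all genes at 50 CPM or more 23.4% were lower beyond counting error, a call that abundant genes such as these reach at small ratios. None of the 82 at that level was past 1.5-fold lower, against 1.28% of all genes. Together they were at 245866 CPM in high-mt and 263028 CPM in low-mt barcodes. Of 24 translation factors 20 were lower, 13 beyond counting error (median -0.09). The ribosomal median was -0.12 at 10000 to 20000 UMIs and -0.11 over 20000 UMIs.

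RNAs that stay in the nucleus went the other way. *Malat1*, a long noncoding RNA of nuclear speckles, had 4 to 889 UMIs per barcode with a median of 148.5 in high-mt barcodes, and 0 to 813 with a median of 102 in low-mt barcodes. Summed, it was at 18813 against 13140 CPM (log2 ratio 0.52, 0.50 to 0.53). *Neat1*, the scaffold of paraspeckles, was at 197 against 126 CPM (0.65, 0.51 to 0.79) and *Kcnq1ot1*, an imprinted noncoding RNA, at 109 against 83.0 CPM (0.40, 0.22 to 0.58). *Tug1* was within counting error (0.25, -0.04 to 0.53). Of the 12 RNAs listed, 6 had UMIs in both groups and all 6 were higher, 4 beyond counting error, with a median of 0.46. Of all detected genes 66.3% were higher and 16.7% higher beyond counting error, with a median of 0.18. Of genes at 50 CPM or more, as 3 of the 12 were, these shares were 52.5% and 28.1%. The ratio of *Malat1* was small in the shallowest barcodes, at 0.045 (0.024 to 0.067) for 10000 to 15000 UMIs, near the median of all genes, 0.30 for 15000 to 20000, 0.41 for 20000 to 30000 and 0.53 over 30000 UMIs. *Neat1* had 0.62, 0.56, 0.44 and 0.13 (-0.44 to 0.64) in the same ranges. In barcodes without an *Mki67* or *Top2a* UMI the median of the list was 0.11. With these also limited to 10000 to 20000 UMIs it was 0.050, near the median of all genes.

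*Lars2* and 3 transcripts of 1 locus were among the genes with the largest ratios outside the mitochondrial genome. *Lars2* (chr9:123366927-123462666), the mitochondrial leucyl-tRNA synthetase, had up to 29 UMIs per barcode with a median of 1 in high-mt barcodes, and up to 38 with a median of 0 in low-mt barcodes. Its level was 163 against 49.2 CPM (1.73, 1.57 to 1.89), and it was 1.67 without the barcode richest in it in each group, 1.72 at 10000 to 20000 UMIs and 1.35 over 20000 UMIs. *Gm42418* (chr17:39846958-39848788, plus strand) had 1 to 407 UMIs per barcode with a median of 10, against 0 to 135 with a median of 6. It was at 2015 against 797 CPM (1.34, 1.29 to 1.38), and at 1.15 and 1.14 in the 2 depth ranges. The locus is known to hold ribosomal RNA sequence, and *AY036118*, which lies inside *Gm42418* on the opposite strand (chr17:39847113-39848035), had a log2 ratio of 1.29 and the neighbouring *Gm26917* 1.43. Reads of the 3 may be split by the counting, so their separate values are uncertain. The sequence of the reads was not checked for these 3 or for *Lars2*, so the source of the *Lars2* UMIs was not tested.

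Against the mt- share itself the measures took different courses. *Lars2* was at 32.4 CPM in barcodes below 2% mt- UMIs, 68.9 CPM at 4 to 5%, 114 CPM at 5 to 6% and 339 CPM at 8% or more. *Gm42418* went from 664 to 1015, 1281 and 3683 CPM, and *Malat1* from 7908 to 15386, 18100 and 21845 CPM. Cytosolic ribosomal genes went the opposite way, from 269584 CPM below 2% to 258150, 251890 and 228799 CPM. Each of these went in 1 direction over all 7 classes of mt- share, below and above the 5% limit. Depth differed between the classes too, with a median of 29408 UMIs below 2%, 17607.5 at 5 to 6% and 16266 at 8% or more. Within low-mt barcodes *Malat1* was at 22076 CPM at 10000 to 15000 UMIs and 9015 CPM over 30000 UMIs. The parts of depth and mt- share in these courses were not separated. Pigmentation genes and *Oca2* instead were highest at 5 to 6%. The pigmentation sum was at 23958 CPM below 2%, 36983 CPM at 4 to 5%, 38030 CPM at 5 to 6% and 32976 CPM at 8% or more, and *Oca2* was at 12.8 CPM below 2% and 59.1 CPM at 4 to 5%, just under the limit. Genes of G2 and mitosis had their lowest level at 5 to 6%, at 1671 CPM, and were at 4750 CPM below 2% and 3959 CPM at 8% or more.

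**Figure D3:**
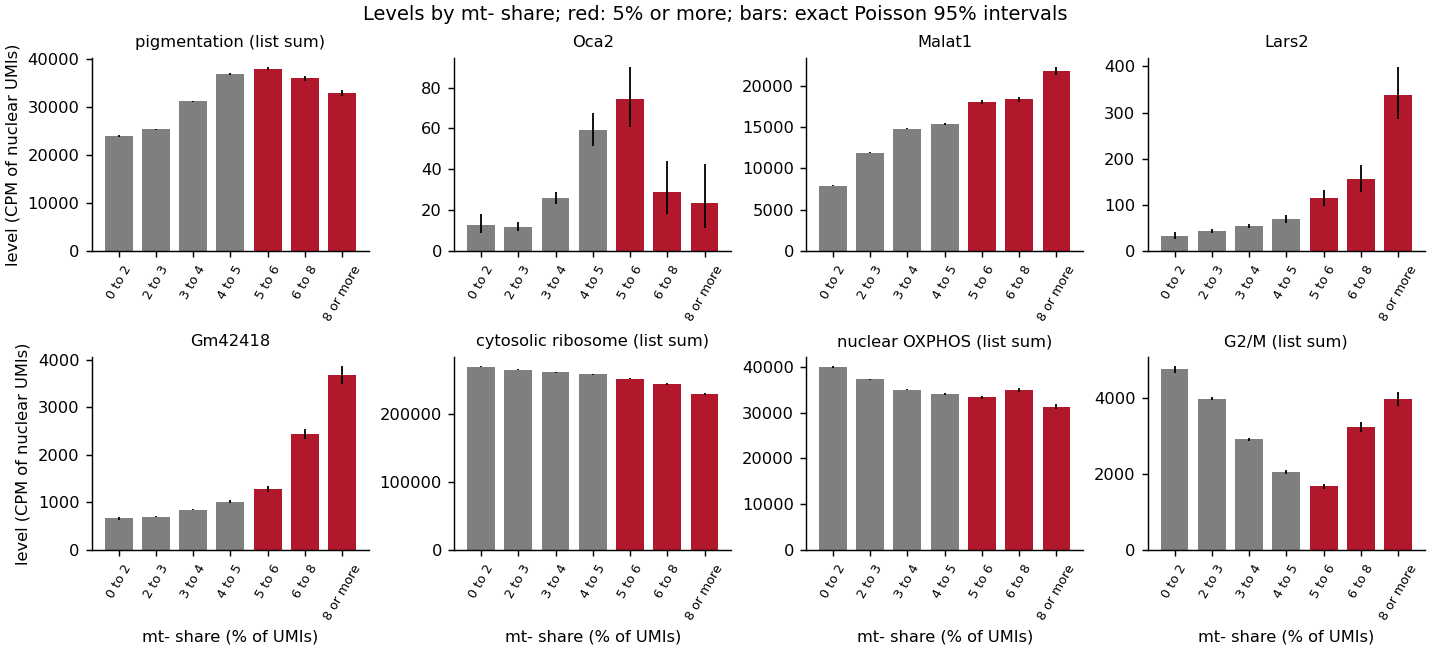
Bars are levels in CPM of nuclear UMIs in selected deep barcodes grouped by mt- share (270, 1015, 1107, 393, 148, 78 and 48 barcodes from left to right), with exact Poisson 95% intervals and red for 5% or more. *Lars2*, *Gm42418* and *Malat1* are highest in the last class, pigmentation and *Oca2* at 5 to 6%, and G2/M genes are lowest there. The classes also differ in depth, with a median of 29408 UMIs in the first and 16266 in the last.

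Genes that span more of the genome were higher in high-mt barcodes. The 3196 genes were ordered by the distance from first to last base in the GENCODE M21 annotation, in which all were found, and cut into 5 classes of 639 or 640. The median log2 ratio was -0.08 in the class of shortest genes (up to 6342 bases), -0.08, -0.02 and 0.08 in the next, and 0.26 in the class of longest genes (63762 bases or more), where it is 0.072 with TMM factors. Of the 81 genes past 1.5-fold higher 35 were in the class of longest genes, which held 0 of the 41 past 1.5-fold lower. These counts depend on the minimum level, since 56 of the 81 reached 50 CPM only in high-mt barcodes. The longest class had the lowest median level in low-mt barcodes, 72.3 CPM against 162 CPM in the shortest, so the counts add no separate evidence on span. Span was not separated from level in the class medians either. In this class 505 of 639 genes were higher at 10000 to 20000 UMIs (median 0.17) and 507 of 639 over 20000 UMIs (median 0.25). Pooled over depth, 52.5% of the 3196 genes were higher. The medians of all genes in these 2 depth ranges, given above with the pigmentation genes, were smaller. At equal depth the high-mt barcodes also held slightly more different genes. With 5000 UMIs of nuclear genes per barcode, the median number of nuclear genes detected was 2024 (quartiles 1926.25 and 2123.75) against 1967 (1883 and 2044).

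**Figure D4:**
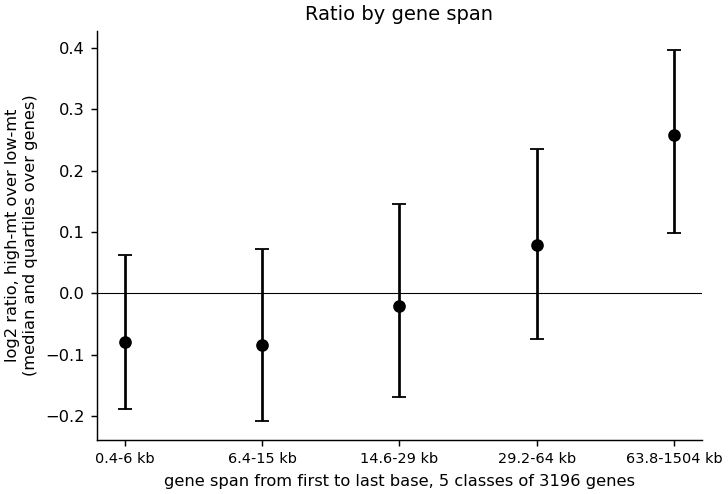
Points are the median log2 ratio, high-mt over low-mt, of genes in 5 classes of genomic span, with quartiles over genes as bars. The medians go from -0.08 for the shortest genes to 0.26 for the longest, and the quartile range of the longest class lies wholly above 0.

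Cell-cycle genes depended on depth so strongly that the pooled ratio describes neither end. Pooled, 82 of 95 genes of S phase and of G2 and mitosis were lower in high-mt barcodes, 55 beyond counting error, with a median of -0.49 and a sum of 3908 against 5209 CPM. Of all genes at 50 CPM or more, as 39 of the 95 were, 47.5% were lower and 23.4% lower beyond counting error. Of all detected genes these shares were 33.7% and 7.39%. Of 13 past 1.5-fold lower, 10 reached 50 CPM only in low-mt barcodes. On the mean of both groups 6 of 30 members were past 1.5-fold lower, against 0.983% of all genes. Among the 13 were *Cdca8* of the chromosomal passenger complex (-1.23), the mitotic kinase *Cdk1* (33.6 against 69.9 CPM, -1.06, -1.39 to -0.74), *Birc5* (-0.89) and the replication gene *Rrm2* (-0.86). Outside the list, the mitotic kinase *Pbk* (-1.50), *Pclaf*, which binds the replication clamp (-1.07), *Mcm3* of the replicative helicase (-1.06) and *Dut*, which keeps uracil out of DNA (-0.87), were also among the 12 genes with the largest ratios downward.

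Within depth the direction turned. At 10000 to 20000 UMIs 92 of the 95 genes were higher in high-mt barcodes, with a median of 1.14, and over 20000 UMIs 91 of 94 were lower, with a median of -0.98. The second range mixes depths, since 973 of its 1854 low-mt but 29 of its 104 high-mt barcodes had over 30000 UMIs. Split there, the median was -0.13 at 20000 to 30000 UMIs, with 31 of 93 genes higher, and -0.95 over 30000 UMIs. The share of barcodes with an *Mki67* or *Top2a* UMI, markers of cycling cells, was taken at 5000 nuclear UMIs per barcode. It was 28.2% of high-mt (48 of 170, 21.6% to 35.6%) against 8.27% of low-mt barcodes (77 of 931, 6.58% to 10.2%) at 10000 to 20000 UMIs. Over 20000 UMIs it was 28.8% (30 of 104, 20.4% to 38.6%) against 40.0% (741 of 1854, 37.7% to 42.2%). At 20000 to 30000 UMIs it was 22.7% (13.8% to 33.8%) against 20.2%, and over 30000 UMIs 44.8% (26.4% to 64.3%) against 57.9%. Pooled, the shares were 28.5% and 29.4%. Among barcodes with no such UMI at full depth (172 and 1523) the list median was -0.035.

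**Figure D5:**
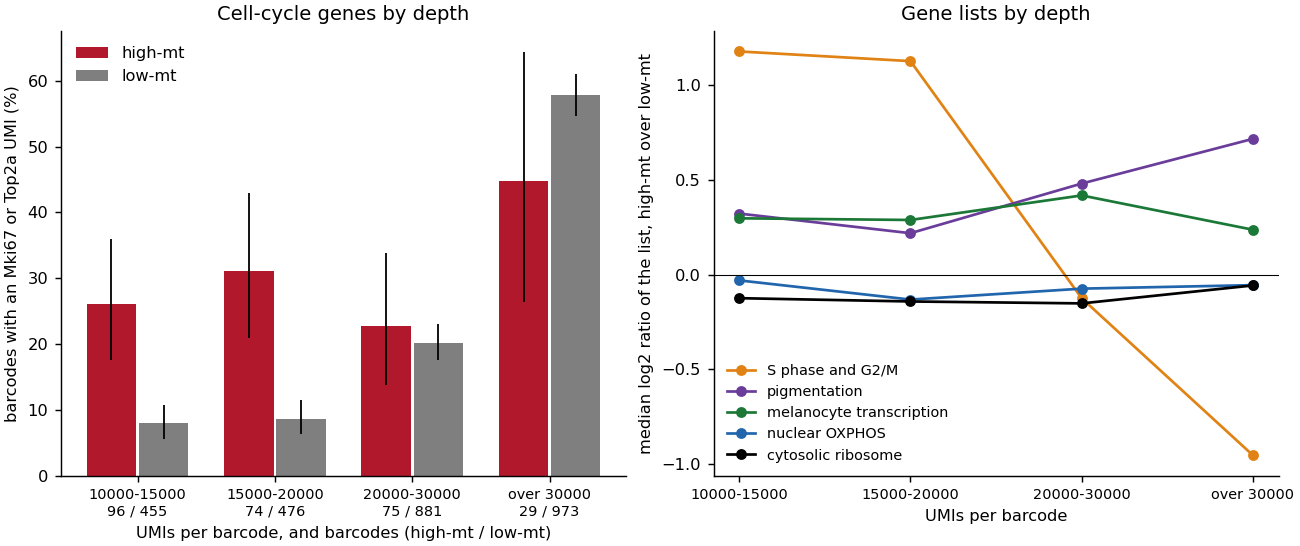
Left, bars are the percentage of barcodes with an Mki67 or Top2a UMI (at 5000 nuclear UMIs each) in 4 depth ranges, with exact 95% intervals and the number of high-mt and low-mt barcodes under each pair. Right, points are median log2 ratios of gene lists, high-mt over low-mt, where the cell-cycle list crosses 0 between the shallow and the deep ranges and pigmentation stays above 0 in all 4.

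Stress and death genes differed in both directions. Of 21 genes of the integrated stress response, the pathway through which mitochondrial and endoplasmic reticulum stress reach ATF4, 7 were higher and 14 lower (3 and 4 beyond counting error), the median was -0.04 and the sums were 1408 and 1407 CPM. Of all detected genes 66.3% were higher and 33.7% lower, 16.7% and 7.39% of them beyond counting error, with a median of 0.18. *Atf4* (-0.15, -0.28 to -0.01) and *Ddit3* (-0.15, -0.45 to 0.14) were not raised. Its amino acid and 1-carbon enzymes *Phgdh* (-0.94), *Mthfd2* (-0.98) and *Asns* (-0.63) were lower, and *Ddit4* (0.95, 0.57 to 1.31) and the transporter *Slc7a5* (0.39) were higher. The 16 endoplasmic reticulum chaperones had a median of -0.04, with 5 lower and 1 (*Canx*, 0.19) higher beyond counting error. Of all genes at 50 CPM or more, as 15 of the 16 were, 23.4% were lower and 28.1% higher beyond counting error. The p53 targets had a median of 0.08 over 18 genes, and their sums of 521 and 551 CPM were within counting error (-0.08, -0.16 to 0.002). Among them *Cdkn1a* was at 22.3 against 48.0 CPM (-1.11, -1.52 to -0.72), and *Trp53inp1* (0.84) and *Sesn1* (0.70) were higher. Among 26 genes of the Bcl2 family, caspases and their inhibitors 15 were higher and 11 lower, 4 and 2 of them beyond counting error, shares near those of all detected genes. The 4 included the survival genes *Bcl2* (0.44), *Xiap* (0.53) and *Birc2* (0.91), *Bax* (-0.24) and *Cycs* (-0.46) were lower, and the median was 0.10, below the 0.18 of all detected genes. Under TMM factors the p53 and Bcl2 family medians were negative (-0.09 and -0.06).

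Immediate early genes, which dissociation is known to induce, were unevenly higher. Of 21 genes 17 were higher, 10 beyond counting error (median 0.31). Of all genes at 50 CPM or more, as 16 of the list were, 52.5% were higher and 28.1% higher beyond counting error. The 16 had a median of 0.17, against 0.02 for all genes. *Egr1*, *Fos*, *Dusp1* and *Btg2* were past 1.5-fold higher, all but *Fos* at 50 CPM only in high-mt barcodes. On the mean of both groups 3 of 14 members were past 1.5-fold higher, against 1.83% of all genes. *Egr1* was at 0 in most barcodes of both groups and reached 49 UMIs in 1 high-mt barcode, against 14 at most in low-mt barcodes. Its level was 122 against 44.3 CPM (1.47, 1.28 to 1.65), and 1.24 (1.04 to 1.43) without the richest barcode of each group. The excess lay mostly in the 5 to 6% class, at 175 CPM, against 56.4 CPM at 6 to 8%. *Egr1* was detected in 20.1% of high-mt and 13.4% of low-mt barcodes at 5000 nuclear UMIs, and in 51.5% of keratinocyte-rich barcodes. *Fos* was at 729 against 444 CPM (0.72, 0.65 to 0.79), but at 0.03 over 20000 UMIs. Within depth the list had medians of 0.12 at 10000 to 20000 UMIs and 0.02 over 20000 UMIs. At 10000 to 15000 UMIs alone it was reversed, with 7 genes higher and 14 lower (median -0.22). At 15000 to 20000 UMIs 14 were higher and 7 lower (median 0.32). Heat shock genes had a median of 0.16, with 7 of 12 higher. Of all genes at 50 CPM or more, as 10 of the 12 were, 52.5% were higher. The heat shock sum was lower, 7715 against 8016 CPM. *Hspa1b* (0.62) and *Hspa1a* (0.41) were higher and the abundant *Hsp90ab1* (-0.22) and *Hspa8* (-0.11) lower. The heat shock median was -0.0045 with TMM factors and -0.046 at 10000 to 20000 UMIs.

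The remaining genes with the largest ratios upward reached 50 CPM only in high-mt barcodes, so their choice rests on the difference itself, and on the mean of both groups *Chka*, *Postn*, *Dtx3*, *Zfp280d* and *Lgals7* stayed below 50 CPM. *Pde10a*, a phosphodiesterase that breaks down cyclic nucleotides, was at 73.1 against 28.9 CPM (1.34, 1.10 to 1.57), and at 1.65 and 1.35 in the 2 depth ranges. It was detected in 24.8% of high-mt and 11.5% of low-mt barcodes at 5000 nuclear UMIs, and in 3.09% of keratinocyte-rich barcodes. It was followed by *Pik3r3*, a regulatory subunit of PI3-kinase (0.96), *Chka*, choline kinase (0.94), the matrix protein gene *Postn* (0.87), *Dtx3* (0.85), *Zfp280d* (0.84), *Nipal3* (0.83) and the endosomal adaptor gene *Appl2* (0.81). *Lgals7*, an epidermal galectin, was at 62.5 against 35.9 CPM (0.80, 0.55 to 1.05), with 10.0% of its high-mt UMIs in 1 barcode.

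The genes with the largest ratios downward outside the cell cycle included *Cxcl9*, *Cxcl10* and *Gbp2*, which were chosen by their ratio and reached 50 CPM only in low-mt barcodes. The chemokine gene *Cxcl9* had UMIs in 4 of 274 high-mt and 59 of 2785 low-mt barcodes, with at most 5 UMIs in a high-mt and 282 in a low-mt barcode, and was at 4.30 against 55.8 CPM (-3.70, -4.70 to -2.85). *Cxcl10* was at 31.3 against 64.5 CPM (-1.04, -1.39 to -0.72) and *Gbp2*, an interferon-induced GTPase, at 28.1 against 64.7 CPM (-1.20, -1.56 to -0.86). The share of barcodes with a *Cxcl9* or *Cxcl10* UMI at 5000 nuclear UMIs was 8.39% of high-mt (5.40% to 12.3%) and 10.3% of low-mt barcodes (9.23% to 11.5%). The difference in level thus lay in how many UMIs the richest barcodes held more than in how many barcodes had any. *Cst6*, a cystatin, was at 33.6 against 66.7 CPM, but 41.2% of its low-mt UMIs came from 1 barcode, and without the richest barcode of each group its log2 ratio was -0.27 (-0.61 to 0.05).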

How the data were processed

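Single-cell RNA-seq libraries of sorted melanocytes were analysed from the UMI counts that the authors deposited per gene and barcode, made with Cell Ranger 6.0.1 on mm10 per the labels. The deposited counts were not filtered on mitochondrial genes. No doublet caller was run; the keratin limit removes some mixed barcodes. The 2 libraries shared 1 barcode sequence, none among the high-mt barcodes.

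Each barcode was thinned at random to 10000 UMIs (seed 11), UMIs were summed per group, and mt- genes were left out of the total. Ratios have exact 95% intervals of 2 Poisson sums and shares have Clopper-Pearson intervals. Reads are tied to molecules by UMIs, and intervals leave out variation between mice. The calculation was tested on simulated data. TMM factors came from edgeR 4.0.16, and gene positions from GENCODE M21 (GRCm38, the build named for the files). Named genes come from the fixed lists or are the 12 that differed most upward and the 12 that differed most downward, at 50 CPM or more and beyond counting error, leaving out mt-, ribosomal protein and clone-named genes; *Gm42418*, *AY036118* and *Gm26917* were chosen after their values were seen. Members and lists were chosen with earlier results of these data known. The markers of 1 further cell type are not reported here.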

Additional observations from a re-analysis of the deposited data

How the results depend on the processing

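Results were recomputed under 15 alternatives (10 for detected genes, 14 for *Cxcl9* and 7 for the immune markers, where the rest gave no separate value), 3 of them (over 20000 UMIs, 10000 to 20000 UMIs without *Mki67* or *Top2a*, and another random draw) chosen after seeing the data. Counted against 0 and not against the median of all genes, the nuclear oxidative phosphorylation, ribosomal and nuclear-retained RNA medians kept their direction under all 15. The pigmentation median did so under all but the 10% limit. Without thinning, 98 genes were past 1.5-fold lower, the pigmentation median was 0.50 and the difference in detected nuclear genes -592. With mt- genes kept in the total, 44 genes were past 1.5-fold higher and the ribosomal median was -0.16. With TMM factors, 20 were higher and 123 lower, and the medians were 0.26 (pigmentation), -0.29 (oxidative phosphorylation), -0.27 (ribosomal) and 0.29 (nuclear-retained). With a limit of 10% (16 high-mt barcodes), 1132 were higher and 463 lower, the medians were -0.027 (pigmentation), 0.33 (cell cycle), -0.30 (oxidative phosphorylation), -0.24 (ribosomal) and 1.51 (nuclear-retained), *Oca2* reversed to -0.15, and the difference in detected genes was 130.5. At 10000 to 20000 UMIs, 15 were lower, the medians were 0.27 (pigmentation) and 1.14 (cell cycle), and the difference in detected genes was 91. Without *Mki67* or *Top2a* UMIs, 53 were higher and 13 lower, with medians of 0.30 (pigmentation), -0.035 (cell cycle) and 0.11 (nuclear-retained). With both limits, 24 were lower, with medians of 0.24 (pigmentation), 0.18 (cell cycle) and 0.050 (nuclear-retained). That nuclear-retained median is near the median of all genes given above for 10000 to 20000 UMIs. Over 20000 UMIs, 190 were higher and 124 lower, with medians of 0.57 (pigmentation) and -0.98 (cell cycle). With a minimum of 10 CPM, 548 were higher and 158 lower, over 8038 genes. The causes of these shifts were not tested.

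The single library and combined mice allow no replicate error, and thresholds were set on the values compared. Counting error is smallest for abundant genes, and genes under 50 CPM are limited by it. No paired analysis was possible because each condition had 1 library, so no replicate was left out. The part of cell damage or cell state in any ratio was not tested, and that of depth was measured only by the comparisons within depth.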

Other observations

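High-mt barcodes also occurred in the bulb melanocyte library, at 113 of the 3887 barcodes with over 5000 UMIs (2.91%) and at 25 of the 3342 with over 10000 UMIs. Of the 113, 110 passed the same selection, and they were compared with 3734 low-mt barcodes after thinning to 5000 UMIs. *Malat1* was at 35463 against 17601 CPM (log2 ratio 1.01, 0.99 to 1.03) and *Neat1* at 645 against 335 CPM (0.94, 0.78 to 1.11). The 18 pigmentation genes had a median log2 ratio of 0.42, *Tyrp1* was at 0.61 and *Oca2* at 864 against 563 CPM (0.62, 0.48 to 0.76). Cytosolic ribosomal and nuclear oxidative phosphorylation genes had medians of -0.34 and -0.27. Endoplasmic reticulum chaperones had a median of 0.56, against -0.04 in early anagen, and the keratinocyte markers summed to 339 against 84.3 CPM. The difference between the libraries was not tested, and their chemistry and depth differ. The bulb high-mt barcodes had a median of 7515.5 UMIs and the low-mt barcodes 14286.5.

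In the early-anagen library, 2852 barcodes of up to 10000 UMIs also had at least 5% mt- UMIs, 1036 of them 20% or more and 508 at least 50%. The selection on *Dct* and keratins was not applied to them, unlike the deep barcodes. Keratinocyte markers were at 1644 CPM in those between 5 and 20%, against 88.7 CPM in the selected deep high-mt barcodes. The 1816 shallow barcodes between 5 and 20% were at 28220 CPM for pigmentation and 25897 CPM for *Malat1*, against 36603 and 18813 CPM in the deep high-mt barcodes. Their cytosolic ribosomal genes were at 254022 CPM and *Lars2* at 201 CPM, against 245866 and 163 CPM in deep high-mt and 263028 and 49.2 CPM in deep low-mt barcodes. Those at 20% or more were at 18439 CPM for pigmentation, 122467 CPM for *Malat1*, 67230 CPM for cytosolic ribosomal genes and 1397 CPM for *Lars2*. The 4389 shallow barcodes with less than 5% mt- UMIs, also unselected, were at 25349 CPM for pigmentation and 15998 CPM for *Malat1*. Their cytosolic ribosomal genes were at 280827 CPM and *Lars2* at 63.8 CPM.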
